A study of Mus musculus with 6 samples.

Results

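Vesicular neurotransmitter transporters, the proteins that load small transmitters into synaptic vesicles, were examined as transcripts in mouse retinas at P6, postnatal day 6. The set held 8 of the 21995 gene rows measured: Slc18b1, Slc18a2, Slc18a3, Slc17a6, Slc17a7, Slc17a8, Slc17a9 and Slc32a1. Slc18b1 was selected on its FPKM in the comparison of genotypes given here, so its difference is a description and carries no test. The other 7 were added because they load other transmitters into vesicles. Of the 8, 7 had a mean of at least 0.5 FPKM over all libraries and entered the fit, 6 of them besides Slc18b1, and Slc17a8 did not.

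RNA-seq libraries came from 3 Lhx4-null and 3 control mice at P6, all on a mixed C57BL/6J; 129S6 background, each library holding the retinas of 1 animal. Lhx4-null mice had a tdTomato knock-in allele of Lhx4 together with a loxP allele that Six3-Cre, active in the developing retina, recombines there. Controls are labelled as control only, and no source used here gives their alleles in the RNA-seq experiment. Lhx4 codes for a LIM-homeodomain factor that bipolar cells express, these being the interneurons between photoreceptors and ganglion cells, and the design asks how retinal transcripts differ when it is inactivated in the retina. FPKM divide the fragments of a gene by gene length and by the fragments mapped in that library, so levels can be set side by side between genes, while the reads behind a value are unknown.

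These transporters load transmitter with the proton gradient or the voltage that a proton pump builds across the vesicle membrane. The set of them in a neuron bears on which transmitters it can release. In the retina, glutamate is the transmitter of photoreceptors, bipolar cells and ganglion cells, GABA and glycine are those of amacrine cells, and smaller amacrine populations release acetylcholine or dopamine. SLC18B1 carries the polyamines spermine and spermidine, small cations that bind nucleic acids and block some glutamate receptors and potassium channels.

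Over the whole table, FPKM summed to between 386567 and 429668 a library, and between 5348 and 5818 rows were listed at 0. Rod markers were present as in retina, with 10 of 10 measured in every library and summed levels of 2043 to 3009 FPKM in Lhx4-null and 1840 to 3925 FPKM in control libraries. Of the pigment epithelium, which was dissected away, 4 of 10 markers were below 0.5 FPKM in every library and the summed level was 15.1 to 36.6 FPKM in Lhx4-null and 15.3 to 33.7 FPKM in control libraries. Both libraries numbered 3 stood apart: 12 of 12 progenitor and cell cycle markers were higher in them than in the other 4, and 10 of 10 rod markers lower. Of all rows tested, 19.4% were higher in both and 17.7% lower. Lhx4 was at 28.2, 28.3 and 25.8 FPKM in Lhx4-null and 17.98, 18.1 and 19.3 FPKM in control libraries. Each Lhx4-null value lay above each control, and the log2 difference of 0.56 (SE 0.0847) did not pass (limma, adjusted p = 0.336 over all rows). One value a gene does not separate the deleted part of the transcript from the rest, so it does not check the genotype labels.

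Slc18b1, the vesicular polyamine transporter, was lower in each Lhx4-null retina than in each control, and its difference was the largest in size among the 7 transporters fitted. Its rank is a description, since Slc18b1 was selected on these values. It was at 8.72, 8.62 and 8.33 FPKM in Lhx4-null libraries 1 to 3, against 28.2, 24.7 and 29.5 FPKM in control libraries 1 to 3. All 3 Lhx4-null values lay together, far under the lowest control, and the groups did not overlap. The means were 8.56 ± 0.202 FPKM in Lhx4-null and 27.5 ± 2.49 FPKM in control retinas (SD, n = 3 each), which put the Lhx4-null mean at 31.2% of the control mean. On the scale of log2(FPKM + 0.5), Lhx4-null minus control was -1.62 (SE 0.0976).

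The level of Slc18b1 was steady within each genotype. The SD was 2.36% of the mean in Lhx4-null and 9.05% in control libraries. Taken by replicate number, Lhx4-null over control was 0.309, 0.349 and 0.282, so the 3 ratios were similar. Libraries numbered 3 differed from the mean of numbers 1 and 2 by -0.05 in Lhx4-null and 0.16 in control retinas on the log2 scale, small beside the difference between genotypes. Over 17 alternative settings, single libraries left out included, the difference lay between -1.70 and -1.55. Slc18b1 was selected on these same values, so its spread, ratios and range are descriptions and add no support. Among all rows tested, every Lhx4-null library lay below every control for 5.53%, and every one above for 7.88%. A limma fit called 2 of 13175 rows (0.0152%) when p was adjusted after Benjamini and Hochberg (BH) and held under 0.05, and 12 with the replicate number as a block (0.0911%). Without Lhx4-null 2 the fit called 0 rows (830 at an unadjusted p under 0.05), and without control 2 it called 1.

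**Figure D1:**
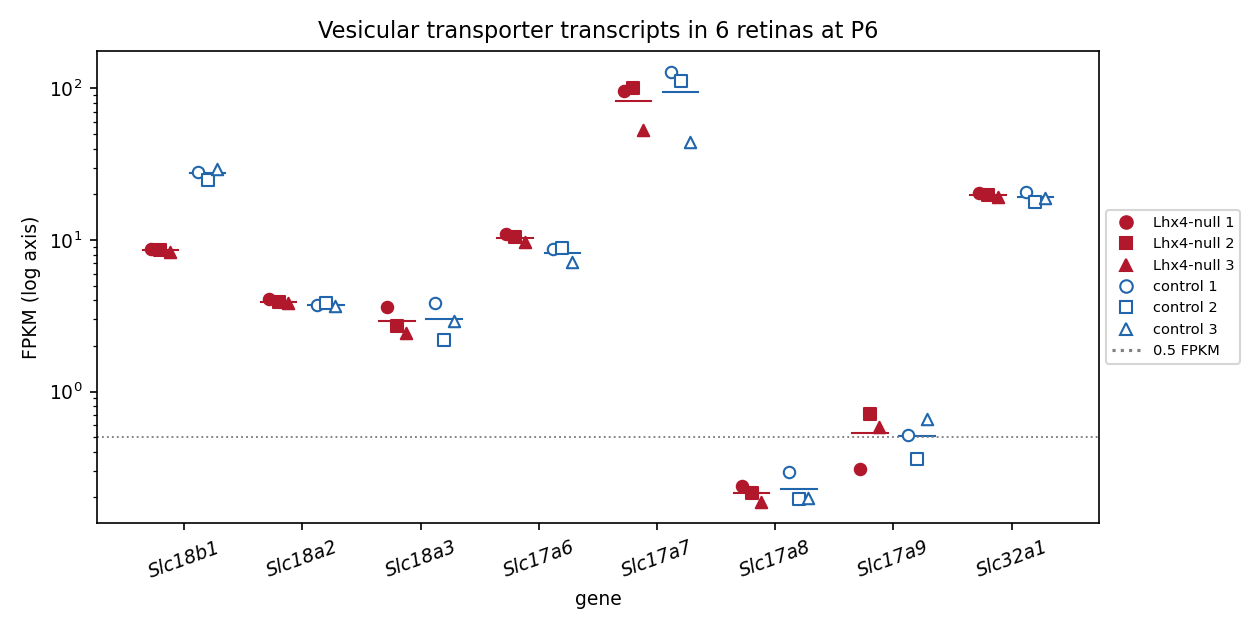
FPKM on a log axis of the 8 transporter genes in each library, with Lhx4-null libraries as filled red points on the left of each gene, control libraries as open blue points on the right, shape marking the replicate number and a bar at the group mean. Slc18b1 parts into 8.33 to 8.72 FPKM in Lhx4-null and 24.7 to 29.5 FPKM in control libraries, while both libraries numbered 3 lie lowest for Slc17a7. The dotted line marks 0.5 FPKM.

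Slc18b1 (ENSMUSG00000037455.16, protein coding) lies at chr10:23796986-23827968 on the plus strand of GRCm38. It has 6 annotated transcripts covering 3258 exonic bases, and no other annotated gene overlaps it, so its fragments are not shared with an overlapping gene. The FPKM of a gene sums over its transcripts here, and which of the 6 differed was not analysed. The 250 bases before its annotated start, where both GENCODE M21 and RefSeq place the first base, are shown because this is the gene that parted the genotypes. The capitals in these windows would mark TAATTA, the core letters that LIM-homeodomain factors are known to bind, which read the same on both strands.
Slc18b1, chr10:23796736-23796985, plus strand, RefSeq on GRCm38.p6: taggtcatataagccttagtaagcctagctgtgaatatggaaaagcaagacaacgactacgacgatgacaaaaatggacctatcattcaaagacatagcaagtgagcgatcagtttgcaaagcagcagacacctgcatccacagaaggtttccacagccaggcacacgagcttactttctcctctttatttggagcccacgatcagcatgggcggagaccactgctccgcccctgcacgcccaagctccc

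The Slc18b1 window holds no TAATTA. Among RefSeq promoter windows of the same 250 bases, 4.84% of 32851 hold it. RefSeq gave 9 windows for 7 of the 8 transporters, and 2 of these 9 held the letters, one of Slc17a6 and one of Slc17a8. The Slc17a6 window is shown beside that of Slc18b1 because its gene was the one other member whose groups did not overlap. It precedes a second RefSeq start, inside the first intron of the GENCODE gene model, and the first base of the capitals is 81 bases before that start.
Slc17a6, chr7:51624387-51624636, plus strand, RefSeq on GRCm38.p6: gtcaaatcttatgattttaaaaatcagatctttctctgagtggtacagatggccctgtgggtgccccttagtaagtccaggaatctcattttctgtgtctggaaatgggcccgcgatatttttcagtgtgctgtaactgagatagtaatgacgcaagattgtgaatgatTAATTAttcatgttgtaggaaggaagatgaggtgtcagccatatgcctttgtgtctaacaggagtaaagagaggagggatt

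The window before the first RefSeq start of Slc17a6, given for comparison, holds none.
Slc17a6, chr7:51621580-51621829, plus strand, RefSeq on GRCm38.p6: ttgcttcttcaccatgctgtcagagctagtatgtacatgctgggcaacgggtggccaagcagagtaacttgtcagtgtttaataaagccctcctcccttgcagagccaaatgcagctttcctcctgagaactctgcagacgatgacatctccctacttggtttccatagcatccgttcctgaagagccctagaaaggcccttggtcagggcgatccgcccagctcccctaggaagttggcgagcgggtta

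These letters are short and common, and a match or its absence in a window says nothing of binding in these retinas.

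Genes around Slc18b1 pointed in both directions, with differences mostly near 0. The 10 nearest tested genes on each side reached 3452 kb before and 2925 kb after it. Of these 20, 9 were higher and 11 lower in the Lhx4-null retina, with a median log2 difference of -0.04. By limma 0 were called, and 2 had an unadjusted p under 0.05, beside 6.81% of all rows. Rps12, a ribosomal protein gene that ends 9.71 kb before Slc18b1, differed by -0.23, and Stx7, an endosomal syntaxin gene 321 kb after it, by 0.05.

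Moxd1, a gene of the copper monooxygenase family 396 kb after Slc18b1, was at 13.8, 12.5 and 13.5 FPKM in Lhx4-null and 8.47, 11.1 and 9.14 FPKM in control libraries. These groups did not overlap, and the log2 difference of 0.46 did not pass (limma, BH-adjusted p = 0.661). E030030I06Rik, 1648 kb before it, was at 0.244, 0 and 0.281 FPKM in Lhx4-null and 0.881, 4.70 and 0.757 FPKM in control libraries. Control 2 stood far above the other libraries, and the difference of -1.65 did not pass (limma, BH-adjusted p = 0.674).

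**Figure D2:**
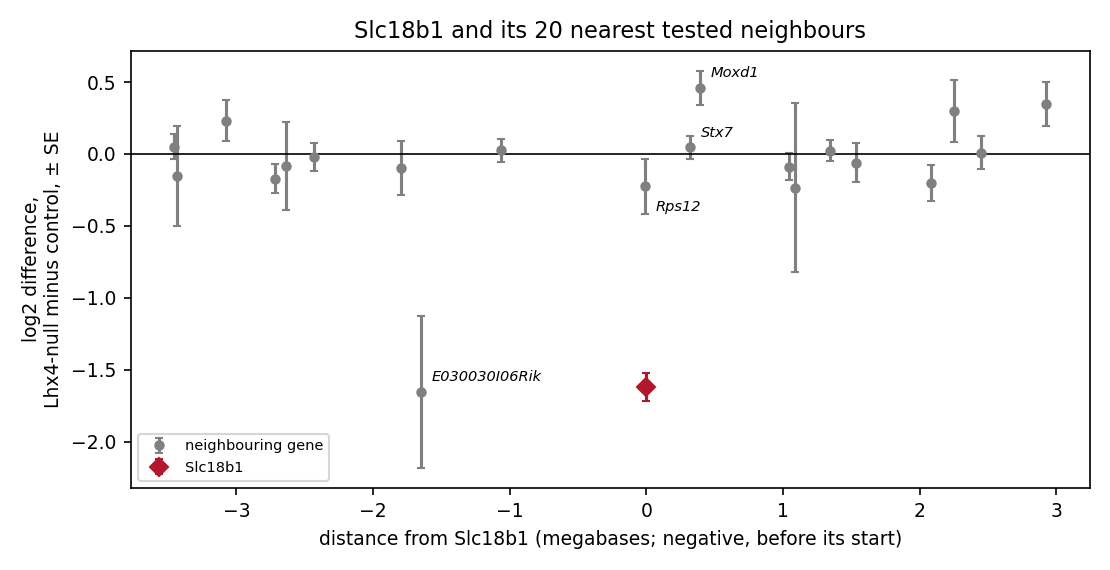
Log2 difference, Lhx4-null minus control, with its SE, of Slc18b1 (red diamond) and the 20 nearest tested genes (grey points) against distance from Slc18b1 in megabases. Most neighbours lie near 0, and E030030I06Rik at -1.65 is the neighbour nearest in size to the -1.62 of Slc18b1, with a wide SE.

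The 5 rows most like Slc18b1 were sought by Pearson's r of log2(FPKM + 0.5) over the 6 libraries, among 99 rows with an absolute difference of at least 0.8 between genotypes. Since that choice fixes a difference between the groups, the r values are descriptions and carry no p. They were Car9 (r = 0.964), Tmem265 (0.959), Fezf2 (0.923), Cnpy1 (0.905) and Samsn1 (0.894). Fezf2, a zinc finger transcription factor found in bipolar cells, was at 2.77, 2.75 and 2.31 FPKM in Lhx4-null and 11.1, 7.47 and 5.58 FPKM in control libraries. Car9, a carbonic anhydrase gene, was low throughout, at 0.0882, 0.151 and 0.186 FPKM in Lhx4-null and 0.868, 1.26 and 1.03 FPKM in control libraries. Tmem265 was at 2.05, 1.39 and 2.13 FPKM in Lhx4-null and 6.73, 4.40 and 5.50 FPKM in control libraries. Tmem265 overlaps Gm42715 on its own strand and Car9 has an antisense partner, so these levels are uncertain. All 5 rows were lower in the Lhx4-null retina, which the choice of rows like Slc18b1 brings with it, and the mean of Slc18b1 was above that of each of them in both groups.

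Bipolar cell markers pointed in both directions. The 15 bipolar markers summed to 635, 600 and 554 FPKM in Lhx4-null and 738, 694 and 640 FPKM in control libraries, which put the Lhx4-null mean at 86.3% of control, against 31.2% for Slc18b1. Otx2, which rods share, made up 51.7% to 76.9% of that sum. Without Otx2, a sum taken after the values were seen, the other 14 gave 261, 265 and 157 FPKM in Lhx4-null and 357, 252 and 148 FPKM in control libraries, and the groups overlapped. Of the 14 markers tested, 5 were higher and 9 lower, and 0 were called by limma. An unadjusted p under 0.05 was met by 2, beside 6.81% of all rows. In both libraries numbered 3, 10 were also lower, beside 17.7% of all rows. One of the markers, Grik1, named after its values were seen, a glutamate receptor gene of the kainate class that OFF bipolar cells use, was at 5.06, 4.68 and 3.19 FPKM in Lhx4-null and 19.9, 15.7 and 6.14 FPKM in control libraries. Its Lhx4-null mean was 31.0% of control, close to that of Slc18b1, and its groups did not overlap. Its log2 difference of -1.45 (SE 0.395) did not pass (limma, BH-adjusted p = 0.661 without and 0.0571 with the replicate block). Tacr3 was the other marker without overlap, also lower (log2 -0.70; limma, BH-adjusted p = 0.661). Groups without overlap and lower in the Lhx4-null retina were met in 5.53% of all rows. Vsx1 had the largest difference in the other direction, 1.43, with overlapping groups (limma, BH-adjusted p = 0.777). As a share of the sum of all 15 bipolar markers, Slc18b1 was 1.37%, 1.44% and 1.504% in Lhx4-null and 3.82%, 3.56% and 4.61% in control libraries. These shares did not overlap, which the choice of Slc18b1 on its FPKM brings with it, so they are a description. Which retinal cells carry Slc18b1 was not measured, and in whole retina fewer cells of a type and less RNA per cell cannot be told apart.

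Other polyamine genes pointed in both directions. Of 28 genes for the synthesis, breakdown, use and transport of polyamines, 21 were tested, 9 were higher and 12 lower in the Lhx4-null retina, with a median log2 difference of -0.03, against 6700 higher, 6475 lower and a median of 0.0033 over all rows tested. None of the 21 was called by limma, with or without the block, and 3 had an unadjusted p under 0.05, which 897 of all 13175 rows did (6.81%). Odc1, the rate-limiting enzyme of polyamine synthesis, was at 62.6, 62.7 and 84.4 FPKM in Lhx4-null and 61.0, 72.8 and 70.3 FPKM in control libraries. Spermidine synthase (Srm) averaged 21.1 ± 1.49 FPKM in Lhx4-null and 21.5 ± 1.05 FPKM in control retinas, and spermine synthase (Sms) 48.4 ± 3.33 FPKM in Lhx4-null and 44.9 ± 3.01 FPKM in control retinas (SD, n = 3 each). Sat1, which acetylates polyamines for breakdown, averaged 265 ± 48.3 FPKM in Lhx4-null and 253 ± 36.0 FPKM in control retinas. For these 4 genes the groups overlapped.

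Groups did not overlap for 6 of the 21 polyamine genes, 4 higher and 2 lower, beside 7.88% of all rows higher and 5.53% lower. Of these 6, the 3 with an unadjusted p under 0.05 are named. Atp13a3, a P-type ATPase that carries polyamines into the cell, was at 21.8, 17.2 and 17.9 FPKM in Lhx4-null and 14.8, 14.7 and 14.0 FPKM in control libraries, differing by 0.37 on the log2 scale (SE 0.110; BH-adjusted p = 0.661 by limma). Azin1, an antizyme inhibitor that protects ornithine decarboxylase, was at 58.4, 48.9 and 52.9 FPKM in Lhx4-null and 42.2, 47.7 and 38.0 FPKM in control libraries, a difference of 0.32 (SE 0.113; BH-adjusted p = 0.689 by limma). Dhps, which uses spermidine to make the hypusine of translation factor eIF5A, was at 30.7, 31.9 and 32.7 FPKM in Lhx4-null and 39.4, 35.5 and 41.1 FPKM in control libraries, a difference of -0.28 (SE 0.0876; BH-adjusted p = 0.663 by limma). None of the 3 passed, and Dhps and Azin1 each overlap a gene on the opposite strand.

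The groups overlapped for the monoamine and acetylcholine transporters. Slc18a2, the vesicular monoamine transporter VMAT2 (chr19:59260896-59296012, plus strand), was at 4.07, 3.88 and 3.83 FPKM in Lhx4-null and 3.70, 3.86 and 3.65 FPKM in control libraries. The groups overlapped, at 3.93 ± 0.126 FPKM in Lhx4-null and 3.73 ± 0.110 FPKM in control retinas (SD, n = 3 each). On the log2 scale they differed by 0.06 (SE 0.109; limma, BH-adjusted p = 0.923). An antisense gene, Gm29261, overlaps its first bases, and no source used here says whether the counting used strand.

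Of 16 genes for monoamine synthesis, uptake and breakdown, 7 were tested, and Th and Ddc, enzymes of dopamine synthesis, were under the filter. Th was at 0.290, 0.495 and 0.307 FPKM in Lhx4-null and 0.652, 0.245 and 0.279 FPKM in control libraries, and Ddc averaged 0.586 ± 0.229 FPKM in Lhx4-null and 0.407 ± 0.132 FPKM in control retinas (SD, n = 3 each). Of the 7, 4 were higher and 3 lower, with a median log2 difference of 0.11. By limma 0 were called, and 1 had an unadjusted p under 0.05, beside 6.81% of all rows. Maoa, which breaks down monoamines, had a difference of 0.25 without overlap of the groups and did not pass (limma, BH-adjusted p = 0.721). Tph1, an enzyme of serotonin synthesis named after its values were seen, was at 0.431, 0.858 and 0.735 FPKM in Lhx4-null and 2.22, 1.02 and 0.961 FPKM in control libraries. Its groups did not overlap either, in the other direction, and the log2 difference of -0.65 did not pass (limma, BH-adjusted p = 0.725). Aanat, which makes the precursor of melatonin and is named on the same ground, was at 0.664, 0.883 and 0.696 FPKM in Lhx4-null and 0.469, 1.04 and 3.62 FPKM in control libraries, with overlapping groups (log2 -0.56; limma, BH-adjusted p = 0.828).

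Slc18a3, the vesicular acetylcholine transporter VAChT (chr14:32462438-32464850, minus strand), was at 3.61, 2.69 and 2.44 FPKM in Lhx4-null and 3.86, 2.19 and 2.93 FPKM in control libraries. Values of the 2 groups interleaved, and the difference of -0.02 (SE 0.214; limma, BH-adjusted p = 0.996) changed sign under 6 of 17 alternative settings, among them rescaling to the same total (0.016). The gene lies inside Chat on the same strand, so fragments of the 2 cannot be fully separated and the level is uncertain. Chat, which makes acetylcholine, was at 1.03, 1.27 and 0.875 FPKM in Lhx4-null and 1.49, 0.945 and 1.04 FPKM in control libraries. Slc5a7, the choline uptake transporter, was at 1.14, 1.28 and 1.03 FPKM in Lhx4-null and 0.962, 0.728 and 0.942 FPKM in control libraries, without overlap and without passing (log2 0.26; limma, BH-adjusted p = 0.770). Of the 4 tested genes of acetylcholine synthesis and uptake, 3 were higher, 1 was lower and 0 were called by limma or had an unadjusted p under 0.05. Over all rows, 50.9% were higher, 0.0152% were called and 6.81% had such a p.

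Slc17a6, the vesicular glutamate transporter VGLUT2 that ganglion cells use in the adult, was the one other member whose groups did not overlap (chr7:51622006-51671119, plus strand). It was at 10.9, 10.4 and 9.76 FPKM in Lhx4-null and 8.67, 8.82 and 7.19 FPKM in control libraries. Each Lhx4-null retina lay above each control, at 10.3 ± 0.565 FPKM in Lhx4-null and 8.23 ± 0.903 FPKM in control retinas (SD, n = 3 each), a ratio of 1.26. The log2 difference of 0.32 (SE 0.114) did not pass over all rows (limma, BH-adjusted p = 0.689 without and 0.336 with the replicate block), and such a pattern was met by 7.88% of rows. A short gene model on the same strand, Gm45072, overlaps it. The difference stayed positive under 17 of 17 alternative settings, from 0.23 to 0.37, and passed under none. Ganglion cell markers summed to 277 to 298 FPKM in Lhx4-null and 242 to 305 FPKM in control libraries. Of the 10 tested, 8 were higher and 2 lower, beside 50.9% of all rows higher. Amacrine (9 of 11) and cone markers (6 of 7) also leaned higher, while rod (1 of 10) and bipolar markers (5 of 14) leaned lower. The part of ganglion cells in the level of Slc17a6 was not tested.

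Slc17a7, the vesicular glutamate transporter VGLUT1 of photoreceptors and bipolar cells, was the most abundant member and followed the replicate number more than the genotype (chr7:45163949-45176142, plus strand). It was at 95.4, 100.5 and 53.1 FPKM in Lhx4-null libraries 1 to 3 and 127.8, 112.1 and 44.0 FPKM in control libraries 1 to 3. Both libraries numbered 3 lay below the other 4, as they did for 17.7% of rows, and both lay above for 19.4% of rows. Slc17a7 was the one member with this pattern, and none showed the opposite one.

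Number 3 differed from the mean of numbers 1 and 2 for Slc17a7 by -0.88 in Lhx4-null and -1.43 in control retinas on the log2 scale. Those values were at percentile 0.698 in Lhx4-null and 0.509 in control retinas among all rows tested, whose medians were 0.034 in Lhx4-null and -0.034 in control retinas. Between genotypes the difference was -0.10 (SE 0.418; limma, BH-adjusted p = 0.979), with an SE of 0.127 and a BH-adjusted p of 0.759 under the replicate block. Taken by replicate number, Slc17a7 was lower in the Lhx4-null retina for numbers 1 and 2 and higher for number 3. With both libraries numbered 3 left out the difference was -0.29 (SE 0.0906), which did not pass either (limma, BH-adjusted p = 0.421). Without control 3 alone it was -0.58, and without control 1, control 2 or Lhx4-null 3 it turned positive (0.18 without control 1, 0.089 without control 2 and 0.19 without Lhx4-null 3).

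Rod markers moved with Slc17a7. They summed to 2841, 3009 and 2043 FPKM in Lhx4-null libraries 1 to 3 and 3763, 3925 and 1840 FPKM in control libraries 1 to 3. Slc17a7 was 3.36%, 3.34% and 2.60% of that sum in Lhx4-null and 3.40%, 2.86% and 2.39% in control libraries, so the share was also lowest in number 3 of each genotype and varied less than the level. The part of rods in the level of Slc17a7 was not tested.

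**Figure D3:**
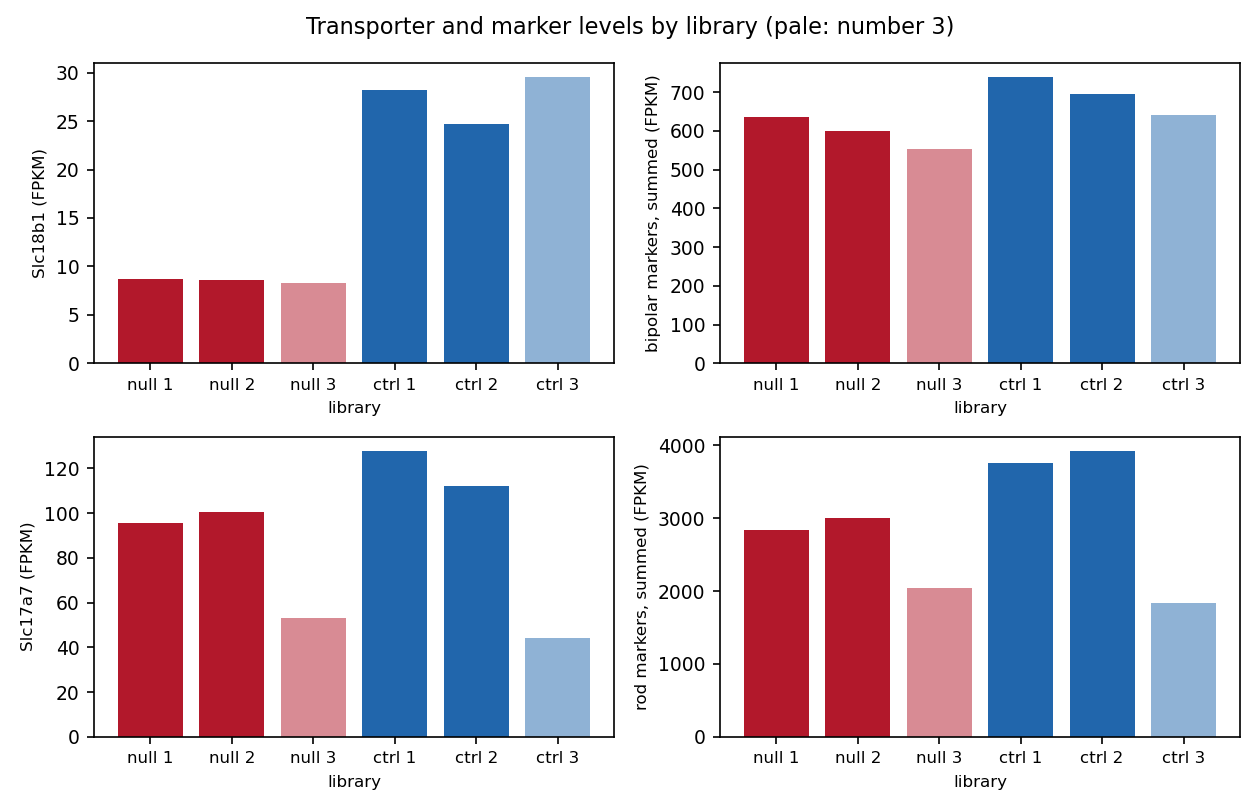
FPKM of Slc18b1 (top left), summed FPKM of 15 bipolar markers (top right), FPKM of Slc17a7 (bottom left) and summed FPKM of 10 rod markers (bottom right), 1 bar a library from a baseline of 0, Lhx4-null in red on the left and control in blue on the right, number 3 in a paler shade. Slc18b1 follows genotype, while Slc17a7 and the rod markers are lowest in Lhx4-null 3 (53.1 and 2043 FPKM) and control 3 (44.0 and 1840 FPKM).

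The balance of the glutamate transporters at P6 lay with Slc17a7. It made up 89.6%, 90.5% and 84.2% of the summed FPKM of Slc17a6, Slc17a7 and Slc17a8 in Lhx4-null and 93.4%, 92.6% and 85.6% in control libraries. Slc17a7 over Slc17a6 was 8.77, 9.67 and 5.44 in Lhx4-null and 14.7, 12.7 and 6.12 in control libraries. Taken by replicate number, a pairing the labels do not state, this ratio was lower in the Lhx4-null retina for each of the 3 numbers. The groups overlapped through control 3. Slc17a8, the vesicular glutamate transporter VGLUT3 of some amacrine cells (chr10:89574020-89621253, minus strand), was the lowest member. It was at 0.238, 0.213 and 0.187 FPKM in Lhx4-null and 0.295, 0.196 and 0.197 FPKM in control libraries, under the filter in all 6. Fitted with no filter over 17727 rows, its difference was -0.03 (SE 0.0781; limma, BH-adjusted p = 0.958).

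None of the 15 genes of glutamate synthesis and uptake was called or had an unadjusted p under 0.05 in limma. Over all rows, 0.0152% were called and 6.81% had such a p. Of the 15 genes, 11 were higher and 4 lower in the Lhx4-null retina, with a median log2 difference of 0.09. For all rows tested, 50.9% were higher and the median was 0.0033.

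Slc17a9, the vesicular nucleotide transporter that loads ATP (chr2:180725263-180742280, plus strand), was near the filter. It was at 0.308, 0.708 and 0.586 FPKM in Lhx4-null and 0.516, 0.360 and 0.655 FPKM in control libraries. The spread within each group was wider than the distance between the means, and the difference of 0.02 (SE 0.225; limma, BH-adjusted p = 0.996) changed sign after quantile normalization (-0.011). Of 9 tested genes for release and breakdown of nucleotides, 6 were higher, 3 lower and 0 called by limma or at an unadjusted p under 0.05, with a median log2 difference of 0.10. Over all rows, 50.9% were higher, 0.0152% were called and 6.81% had such a p.

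Slc32a1, the vesicular transporter of GABA and glycine (chr2:158610767-158615748, plus strand), was steady across all 6 retinas. It was at 20.5, 19.9 and 19.1 FPKM in Lhx4-null and 20.8, 17.7 and 18.9 FPKM in control libraries. The groups overlapped, at 19.8 ± 0.662 FPKM in Lhx4-null and 19.1 ± 1.54 FPKM in control retinas (SD, n = 3 each), and the difference was 0.05 (SE 0.0923; limma, BH-adjusted p = 0.928). The antisense gene Gm14205 overlaps it.

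No gene listed for making, recovering or breaking down GABA and glycine was called. Of 13 tested, 10 were higher and 3 lower, beside 50.9% of all rows higher, the median log2 difference was 0.09, and 2 had an unadjusted p under 0.05 in limma, beside 6.81% of all rows. Slc6a11, a GABA uptake transporter, was at 35.0, 31.8 and 30.3 FPKM in Lhx4-null and 29.6, 26.0 and 24.4 FPKM in control libraries (log2 0.28; limma, BH-adjusted p = 0.695). Abat, which breaks GABA down, averaged 21.2 ± 1.47 FPKM in Lhx4-null and 17.9 ± 0.972 FPKM in control retinas (SD, n = 3 each), a log2 difference of 0.24 (limma, BH-adjusted p = 0.701). Gad1 and Gad2, which synthesize GABA, had differences of 0.17 each with overlapping groups. The glycine transporter Slc6a9 averaged 54.9 ± 9.92 FPKM in Lhx4-null and 51.8 ± 11.8 FPKM in control retinas (SD, n = 3 each). Amacrine markers, 3 of which (Gad1, Gad2 and Slc6a9) are also in this list, summed to 507 to 543 FPKM in Lhx4-null and 460 to 581 FPKM in control libraries.

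**Figure D4:**
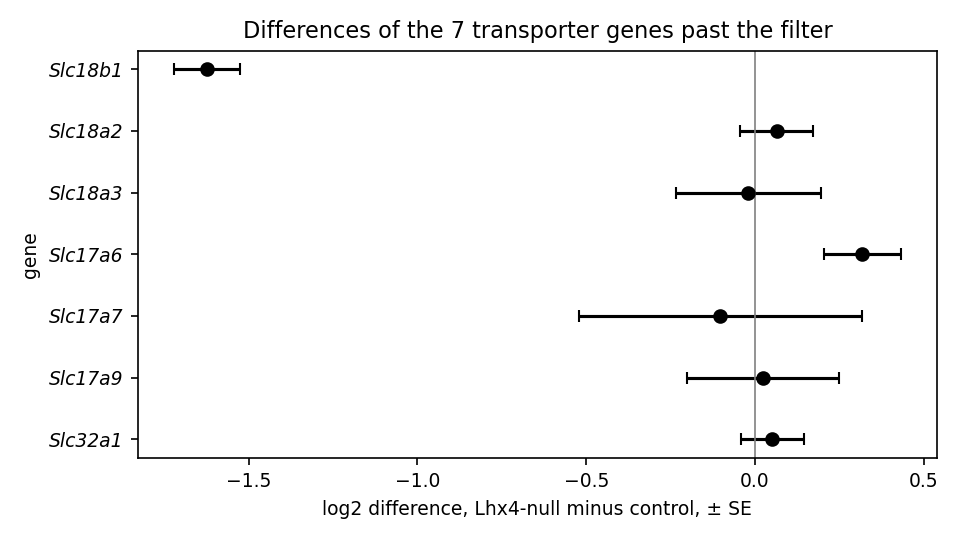
Log2 difference, Lhx4-null minus control, of the 7 transporter genes past the filter, as points with SE bars (n = 3 a group). Slc18b1 stands at -1.62, Slc17a6 at 0.32, and the other 5 between -0.10 and 0.06. Slc18b1 was selected on this difference and its point is a description.

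Set side by side, 6 tested members other than Slc18b1 had log2 differences between -0.10 and 0.32, with a median of 0.04, 4 higher and 2 lower. None was called with or without the block, and adjusted p ran from 0.689 to 0.996 (limma, BH). An unadjusted p under 0.05 was met by 1 (Slc17a6), beside 6.81% of all rows. By FPKM, levels in the control retina fell in the order Slc17a7, Slc18b1, Slc32a1, Slc17a6, Slc18a2, Slc18a3, Slc17a9 and Slc17a8. Slc18a2 and Slc18a3 overlapped in controls, and the other neighbours in that order did not. Slc18b1 was above Slc32a1 in 3 of 3 control libraries and below Slc32a1 and Slc17a6 in 3 of 3 Lhx4-null libraries. Slc18b1 made up 6.07%, 5.87% and 8.56% of the summed FPKM of all 8 in Lhx4-null and 14.5%, 14.5% and 27.6% in control libraries, the highest value of each group being that of number 3, where Slc17a7 was low. The choice of Slc18b1 on its FPKM brings this change of order and of share with it, so both are descriptions. The summed FPKM was 143.7, 146.9 and 97.4 in Lhx4-null and 193.9, 169.9 and 107.1 in control libraries.

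Of the rest of the same 2 transporter families, Slc17a5 (sialin, a lysosomal transporter) was the one gene tested. It was at 6.64, 6.30 and 5.78 FPKM in Lhx4-null and 5.23, 4.58 and 4.74 FPKM in control libraries, without overlap of the groups, and did not pass (log2 0.33, SE 0.112; limma, BH-adjusted p = 0.689). The other 5 were below 0.5 FPKM in every library, among them Slc18a1, the monoamine transporter VMAT1, at 0.0579 to 0.396 FPKM in Lhx4-null and 0.0575 to 0.235 FPKM in control libraries.

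Neither the vesicular proton pump nor the listed synaptic vesicle and release proteins gave a call. Of the 18 tested subunits and partners of the vesicular proton pump, 10 were higher and 8 lower, with a median log2 difference of 0.03. Atp6ap2 had the one unadjusted p under 0.05, which 6.81% of all rows had (log2 0.26; limma, BH-adjusted p = 0.661). Of 21 synaptic vesicle and release proteins, 18 were higher and 3 lower in the Lhx4-null retina, with a median of 0.17, 0 called by limma and 4 at an unadjusted p under 0.05, beside 50.9% of all rows higher and 6.81% at that p. Synpr, a synaptophysin relative, was at 25.2, 27.5 and 28.2 FPKM in Lhx4-null and 21.7, 21.0 and 21.2 FPKM in control libraries (log2 0.33; limma, BH-adjusted p = 0.661). Syt1, the calcium sensor of release, differed by 0.28, Sv2b, a vesicle glycoprotein, by 0.31 and Sypl by 0.21, each without overlap and without passing. Groups without overlap and higher in the Lhx4-null retina were met in 7.88% of all rows. Of the 21, 12 were lower in both libraries numbered 3, beside 17.7% of all rows. In libraries numbered 3 the list summed to 1513 FPKM in Lhx4-null and 1266 FPKM in control retinas. Numbers 1 and 2 gave 1771 to 1774 FPKM in Lhx4-null and 1687 to 1745 FPKM in control libraries. The part of the number in these differences was not tested.

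**Figure D5:**
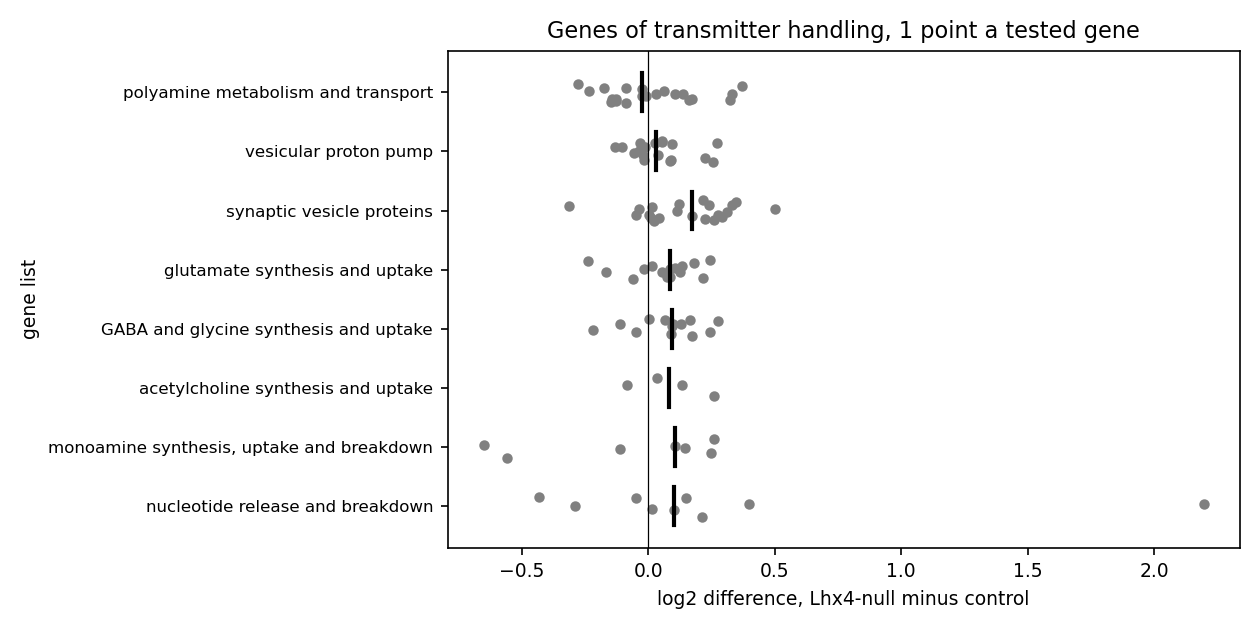
Log2 difference, Lhx4-null minus control, of each tested gene (grey points) in 8 lists of genes that handle transmitters, with a black bar at the list's median. Medians run from -0.03 for polyamine genes to 0.17 for synaptic vesicle proteins, no gene shown was called, and the point at 2.20 is Entpd1, which was 45.9 FPKM in Lhx4-null 2 and at most 1.35 FPKM elsewhere.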

How the data were processed

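The authors deposited FPKM per gene, made with TopHat2 for mapping and Cufflinks for abundance on GRCm38, per the labels and the study's methods. Versions, annotation and strand setting were not given in the sources consulted. Low values gave no steps of whole reads (0.564% to 4.11% of ratios between 2 libraries fell in the most common bin of 0.003 on the natural log scale). The study's methods state a range of sequencing depth over its libraries, not the depth of each. The reads behind a value thus stay unknown, and precision rests on 3 animals a group. Of 78 repeated names, the row with the highest mean was kept under the name. limma 3.58.1 (R 4.3.3) was fitted with a trend on log2(FPKM + 0.5), which understates the change of low genes, to 13175 rows averaging 0.5 FPKM or more, with two-sided p Benjamini-Hochberg (BH) adjusted over all rows and called under 0.05. The fit was tested on simulated data. Libraries of the same replicate number were set side by side, a pairing that the labels do not state. Deviations from the group means correlated at 0.394, 0.260 and 0.675 for numbers 1, 2 and 3. Those of number 2 were not closest to each other: Lhx4-null 2 gave 0.377 with control 1, and control 2 gave 0.269 with Lhx4-null 1. The study's test works on fragments and was not rerun. The transporters and gene lists were chosen with earlier results of these data known. Named are all 8 transporters, Lhx4, the 5 rows most like Slc18b1, list members at an unadjusted p under 0.05 (at most 4 a list) with a set fixed by name, and neighbours of Slc18b1. Some genes this rule names are not reported here. Other settings tried were a pseudocount of 0.1 or 1, a filter of 2 FPKM or none, 3 rescalings, no trend, array weights, the replicate block, both libraries numbered 3 left out and each library left out. Positions are from GENCODE M21 and promoter windows from RefSeq. Libraries from the later age were not analysed here.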

Additional observations from a re-analysis of the deposited data

How the results depend on the processing

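Slc18b1 kept its direction in 17 of 17 alternatives, between -1.70 and -1.55, and Slc18a2 and Slc17a6 kept theirs. The number of rows called was 2, 12 with the replicate block and 5 with both libraries numbered 3 left out, and it ranged from 0 to 3 with single libraries left out, 0 without Lhx4-null 2 and 1 without control 2. None of the other 6 fitted transporters was called in any alternative, the replicate block included, and Slc18b1, selected on this difference, carries no test. Small differences turned sign. Slc18a3 was positive after rescaling to the same total (0.016), with array weights (0.14), without both libraries numbered 3 (0.080), and ranged from -0.19 to 0.15 with single libraries left out. Slc17a9 was -0.011 after quantile normalization and ranged from -0.099 to 0.19 with single libraries left out. Slc17a7 ranged from -0.58 to 0.19 and Slc32a1 from -0.00099 to 0.11 with single libraries left out. The causes were not tested. No scaling moved the median of all rows by over 0.1 on the log2 scale.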

Other observations

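Entpd1, which breaks down ATP outside the cell, was at 0.889, 45.9 and 1.35 FPKM in Lhx4-null and 0.749, 0.554 and 0.442 FPKM in control libraries. The value in Lhx4-null 2 stood far from the other 5, and the gene is named because of it, after its values were seen. Its log2 difference of 2.20 (SE 1.198) did not pass (limma, BH-adjusted p = 0.749).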
